A study of Mus musculus with 8 samples.

Results

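MHC class II molecules carry peptides from the endosome to the cell surface, where CD4 T cells read them, and costimulators on the same cell decide whether that T cell is activated. These genes were followed in the brainstem of Vglut2:Ndufs4cKO mice, in which the mitochondrial complex I subunit Ndufs4 is deleted in glutamatergic neurons. The members were the classical class II chains H2-Aa, H2-Ab1 and H2-Eb1, the peptide-loading chains H2-DMa and H2-DMb1, the invariant chain Cd74, the transactivator Ciita, and the costimulators Cd86, Cd80 and Cd40. Every probe annotated with one of these 10 symbols was taken, which gave 19 of the 25697 probes on the array and 10 of its 16593 named genes. Of the 19 probes, 14 from 8 genes passed the detection filter and were tested, and 13 were detected on all 8 arrays. Ciita and Cd80 were detected on no array.

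RNA of the whole brainstem was measured with Illumina MouseRef-8 v2 arrays, 1 for each mouse, in 4 Vglut2:Ndufs4cKO mice (below cKO) at a late stage of disease and 4 Vglut2:Ndufs4cCT littermates (below cCT), all of strain C57/BL6J. By the study's methods both groups carry Slc17a6-Cre, a transgene that drives Cre in cells expressing the vesicular glutamate transporter Vglut2. Of the Ndufs4 alleles of cKO mice, 1 is floxed and 1 is already deleted in every cell, whereas cCT mice pair a floxed allele with a wild-type one. The effect of the deleted allele cannot be told apart from that of the deletion in neurons. The cKO and the cCT arrays took up different ends of a single beadchip, which confounds position with group.

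In the healthy brain, class II is carried mainly by border-associated macrophages and the few dendritic cells of the meninges, perivascular spaces and choroid plexus, and parenchymal microglia have little of it until they are activated. Transcription of the class II chains, H2-DM and Cd74 depends on a promoter module of X and Y boxes bound by the RFX and NF-Y complexes, onto which CIITA is recruited, and interferon gamma is the best known inducer of Ciita. Cd86, by contrast, does not need CIITA and is expressed by microglia and macrophages.

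The arrays detected between 14720 and 15042 probes in cKO mice and between 14293 and 14723 in cCT mice, with median bead numbers per probe of 34 to 37. The Ndufs4 probe ILMN_1234521 had log2 signals of 11.19 to 11.72 in cKO mice and of 12.31 to 13.35 in cCT mice, and 3 other Ndufs4 probes did not pass the test. The labelled tissue was borne out by its markers: Slc17a6 had log2 signals of 14.71 to 14.91 in cKO mice and 14.76 to 15.05 in cCT mice, and each of 8 hindbrain Hox genes was detected on at least 1 array. Of 8 neuron markers, Snap25 and Nefl were detected on no array. Xist was detected in no mouse, whereas the Y-linked gene Eif2s3y was detected in all 8. All signals below are log2 values after background correction, scaling to equal array means and addition of 16, and a difference is the log2 value of cKO minus that of cCT. The level of one probe cannot be set against that of another.

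To show what the class II genes share that their annotation as members did not use, their RefSeq promoters (build GRCm38.p6) were searched for the Y box core ATTGG. Cd74 was left out of this search. The promoter table held 5 of the 9 members looked for, with 6 windows of 300 bases. The sequences that follow are the 120 bases before the start of an alpha chain, a beta chain and an H2-DM chain, written 5′ to 3′ on the strand of the gene, with each ATTGG or its reverse complement in capitals. They lie at chr17:34287824-34287943 on the minus strand for H2-Aa, chr17:34305747-34305866 on the plus strand for H2-Eb1 and chr17:34153071-34153190 on the plus strand for H2-DMb1.
H2-Aa: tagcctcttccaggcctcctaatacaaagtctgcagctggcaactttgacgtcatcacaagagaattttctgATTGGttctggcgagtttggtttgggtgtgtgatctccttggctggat
H2-Eb1: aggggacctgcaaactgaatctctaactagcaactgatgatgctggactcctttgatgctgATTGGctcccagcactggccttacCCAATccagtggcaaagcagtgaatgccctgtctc
H2-DMb1: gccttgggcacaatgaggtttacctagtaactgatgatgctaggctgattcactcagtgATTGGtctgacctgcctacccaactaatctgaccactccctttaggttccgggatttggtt
On the gene's own strand the Y box core began 48 bases before the start in H2-Aa, 59 bases before it in H2-Eb1 and 61 bases before it in H2-DMb1, and H2-Eb1 held a further match on the opposite strand 35 bases before the start. Of the 2 H2-DMa windows, 1 held a match, 198 bases before its start, and the Cd80 window held none. These 5 letters occur on either strand in 37.4% of all 32851 promoters of the same length, so a match alone is a description of the letters and not a binding site. For the X box a single spelling of the core was searched, ACAGNTG. It was found on the opposite strand in H2-Aa at 232 bases and in Cd80 at 134 bases before the start, against 18.4% of all promoters. The H2-Eb1 and H2-DMb1 sequences both hold aactgatgatg ahead of the Y box core, which this spelling does not match. The search thus does not show which windows hold an X box or where it lies. The interferon gamma-activated sequence TTCNNNGAA (8.3% of promoters), the ISRE core GAAANNGAA (8.56%) and the NF-kB motif GGGNNTTTC (4.36%), all searched on both strands, were found in none of the 6 windows, which says only that these letters are not in those bases.

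Of the members, only Cd86 had probes called higher in cKO brainstem, at 2.44-fold and 2.42-fold on its brighter pair. Its dimmer probe, ILMN_1216386, was at 1.66-fold and did not pass. CD86 on antigen-presenting cells binds CD28 and CTLA-4 on T cells. Of the 14 tested member probes, 2 were called higher in cKO and 0 lower at an adjusted p under 0.05 (limma, adjusted over all 15225 tested probes), and both were Cd86 probes. Over all tested probes, 0.670% were called higher and 5 probes were called lower. All 14 member probes had the higher mean in cKO mice, against 51.8% of all tested probes, with a median difference of 0.55 against 0.01 for all tested probes. Probes of the same gene and genes that move together are not independent, so the 14 are not 14 observations. At an unadjusted p under 0.05, 7 of the 14 member probes were higher in cKO, against 6.86% of all tested probes. Both the 14 and the 7 include ILMN_1216386, which met the detection filter through the cKO arrays.

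**Figure D1:**
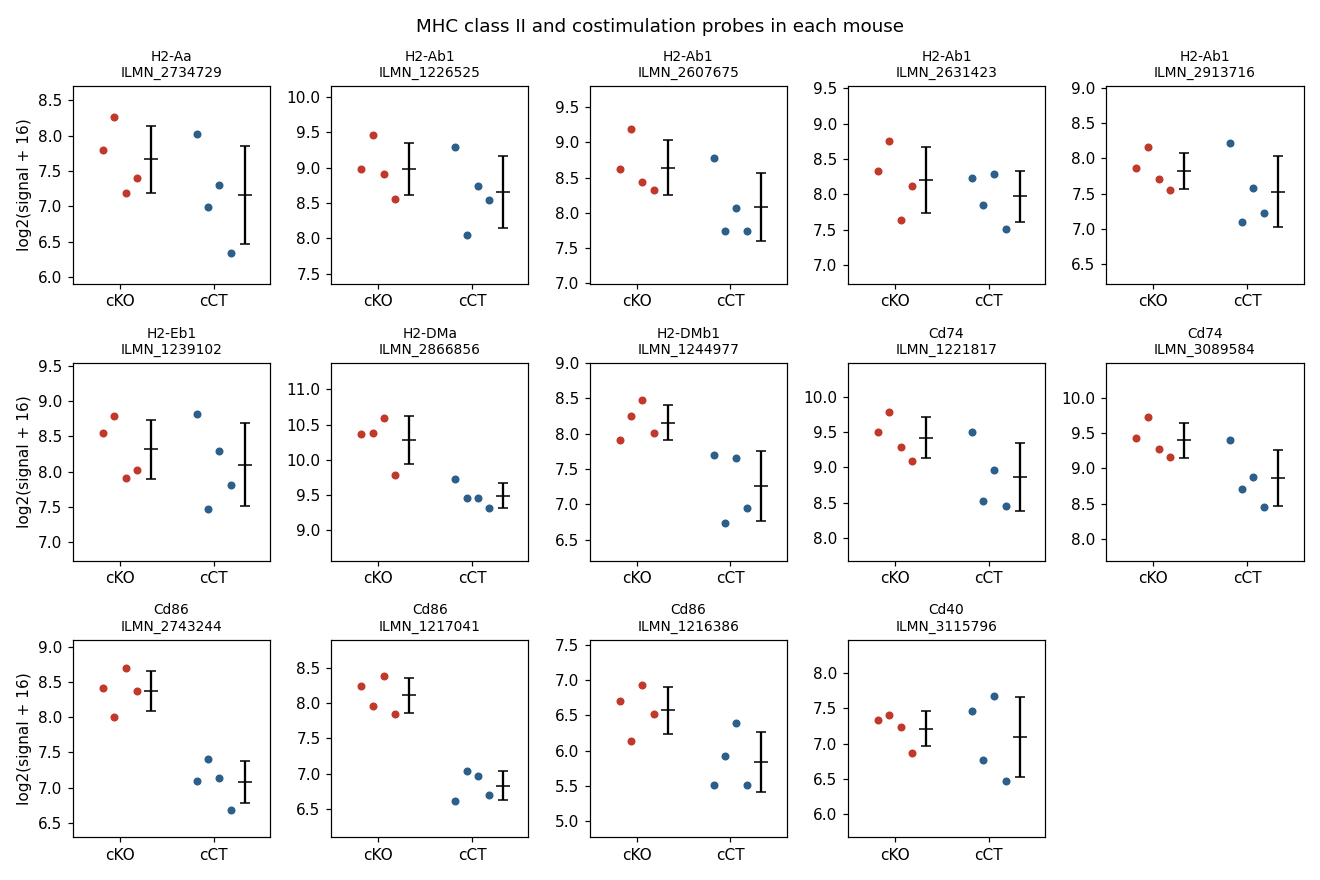
Log2(signal + 16) of each of the 14 tested member probes in every mouse, with cKO mice in red on the left and cCT mice in blue on the right, in replicate order from left to right within a group. Black marks are the mean ± SD (n = 4 each), every panel spans the same log2 range, and the groups stand apart for 2 Cd86 probes, H2-DMa and H2-DMb1.

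The brightest Cd86 probe, ILMN_2743244, had log2 signals of 8.42, 8.0, 8.70 and 8.36 in cKO replicates 1 to 4, against 7.10, 7.41, 7.14 and 6.69 in cCT replicates 1 to 4. Every cKO mouse was above every cCT mouse, with cKO replicate 3 the highest and cCT replicate 4 the lowest. The means were 8.37 ± 0.29 in cKO and 7.09 ± 0.30 in cCT (SD, n = 4 each), a difference of 1.29 (95% interval 0.85 to 1.72, adjusted p = 0.0195 from limma). The probe ILMN_1217041 had log2 signals of 8.25, 7.96, 8.39 and 7.84 in cKO mice, against 6.61, 7.04, 6.97 and 6.70 in cCT mice. Its groups were equally separate, with a difference of 1.28 (95% interval 0.91 to 1.64, adjusted p = 0.0120 from limma). By exact permutation of the mice (two-sided) each probe gave p = 0.0286, and groups of 4 and 4 cannot give a smaller value.

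The third Cd86 probe, ILMN_1216386, was near the detection limit. It was detected in all 4 cKO mice and in 1 cCT mouse, so that the cKO arrays sufficed for the filter, with log2 signals of 6.71, 6.13, 6.92 and 6.51 in cKO and 5.51, 5.93, 6.39 and 5.51 in cCT. Here cCT replicate 3 was above cKO replicate 2, so the groups overlapped, and the difference of 0.73 did not pass (95% interval 0.20 to 1.26, adjusted p = 0.315 from limma). The mean of the 3 Cd86 probes differed by 1.10 (adjusted p = 0.0200, limma over gene means). That mean includes ILMN_1216386, which the filter favoured, so it adds no support to the brighter pair. Cd86 is one of the genes that the study itself named from these arrays, so its call is not independent evidence.

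Without 1 array the difference of ILMN_2743244 stayed between 1.15 and 1.41, while its adjusted p lay between 0.0269 and 0.0772 and missed the threshold without cKO replicate 1 or 3 or without cCT replicate 1, 3 or 4. That of ILMN_1217041 lay between 0.0127 and 0.0501 and missed it without cKO replicate 1 only.

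Of the other costimulators, Cd80 could not be tested and Cd40 did not pass. CD80, the second ligand of CD28 and CTLA-4, had detection p-values between 0.0602 and 0.521 over the 8 arrays, and its log2 signals were 5.0 to 5.83 in cKO mice and 5.11 to 5.98 in cCT mice. These lie at or below the dimmest detected probes of the arrays, which were between 5.77 and 6.13, so no difference of Cd80 was measurable on these arrays. CD40, the receptor through which T cells license antigen-presenting cells, had 4 probes, and 1 of them, ILMN_3115796, was detected on all arrays. That probe had log2 signals of 7.34, 7.41, 7.24 and 6.87 in cKO mice, against 7.47, 6.77, 7.68 and 6.47 in cCT mice. The highest and the lowest value were both from cCT mice, and the difference was 0.12 (95% interval -0.48 to 0.72, adjusted p = 0.918 from limma). This interval does not exclude a rise of up to 1.64-fold. The Cd40 probes ILMN_2503129 and ILMN_2502136 were detected in 2 cKO mice and 1 cKO mouse and in no cCT mouse, and ILMN_2496288 was detected on no array.

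The H2-DM chains came closest to Cd86. H2-DM is the endosomal catalyst that removes the invariant chain remnant from class II and lets peptides bind, and it stays inside the cell. H2-DMa (ILMN_2866856) had log2 signals of 10.36, 10.38, 10.60 and 9.79 in cKO mice, against 9.73, 9.45, 9.45 and 9.32 in cCT mice. The groups did not overlap, although cKO replicate 4 was only just above cCT replicate 1. The means were 10.28 ± 0.35 in cKO and 9.49 ± 0.17 in cCT (SD, n = 4 each), a difference of 0.79 or 1.73-fold (95% interval 1.30 to 2.30-fold) that did not pass (adjusted p = 0.121 from limma, exact permutation p = 0.0286). It passed without cKO replicate 4, with a difference of 0.95 (adjusted p = 0.0215), and with arrays weighted by their quality, at 0.92 (adjusted p = 0.0146).

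The partner chain H2-DMb1 (ILMN_1244977) had log2 signals of 7.91, 8.25, 8.47 and 8.0 in cKO mice, against 7.70, 6.73, 7.66 and 6.95 in cCT mice. Again all cKO mice were above all cCT mice, and cKO replicate 3 was the highest, as it was for H2-DMa and for all 3 Cd86 probes. The difference was 0.90 or 1.87-fold (95% interval 1.28 to 2.72-fold, adjusted p = 0.186 from limma, exact permutation p = 0.0286). Values of H2-DMb1 were more variable in cCT (SD 0.49) than in cKO (SD 0.25). In all, 4 of the 14 member probes had every cKO value above every cCT value, 2 of Cd86 and 1 of each H2-DM chain, against 4.01% of all tested probes.

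**Figure D2:**
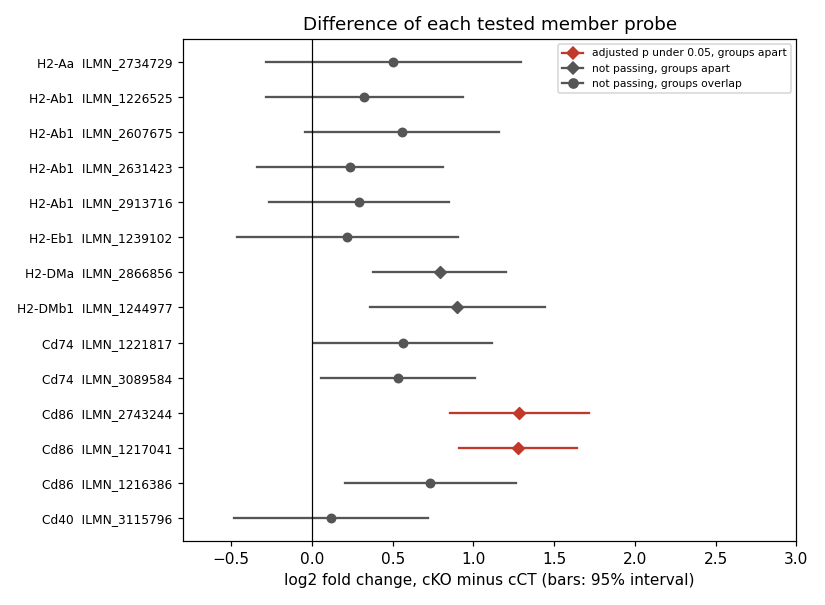
Log2 fold change, cKO minus cCT, of each tested member probe with its 95% interval from limma. Red marks passed at an adjusted p under 0.05 and diamonds mark probes whose groups did not overlap; the 2 red Cd86 probes lie at 1.29 and 1.28, H2-DMa and H2-DMb1 at 0.79 and 0.90, and the H2-Aa, H2-Ab1, H2-Eb1 and Cd74 probes between 0.22 and 0.56.

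Cd74 and the classical chains had higher means in cKO but overlapped between the groups on all 8 of their probes, and none passed. Cd74, the invariant chain that escorts class II to the endosome and is also a receptor of macrophage migration inhibitory factor, was measured by a pair of probes. ILMN_1221817 had log2 signals of 9.50, 9.78, 9.29 and 9.09 in cKO mice, against 9.50, 8.52, 8.95 and 8.46 in cCT mice. Thus cCT replicate 1 was level with cKO replicate 1 while the other 3 cCT mice were below every cKO mouse. The difference was 0.56 (95% interval 0.01 to 1.11, adjusted p = 0.493 from limma), and that of ILMN_3089584 was 0.53 (95% interval 0.06 to 1.01, adjusted p = 0.450).

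H2-Aa, the alpha chain of the class II molecule I-A, had log2 signals of 7.79, 8.27, 7.19 and 7.40 in cKO mice, against 8.02, 6.98, 7.29 and 6.34 in cCT mice. Only cKO replicate 2 exceeded cCT replicate 1, and the difference of 0.50 had a 95% interval of -0.28 to 1.29 (adjusted p = 0.675 from limma). H2-Ab1, its beta chain, had 4 probes, of which the brightest, ILMN_1226525, had log2 signals of 8.99, 9.46, 8.91 and 8.56 in cKO mice, against 9.29, 8.05, 8.73 and 8.54 in cCT mice. The other 3 probes of H2-Ab1 kept cKO replicate 2 as the highest of the cKO mice. Differences of the 4 probes were between 0.24 and 0.56 (adjusted p between 0.543 and 0.793 from limma), and their mean was 0.35 (adjusted p = 0.643, limma over gene means).

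H2-Eb1, the beta chain of the class II molecule I-E, had log2 signals of 8.54, 8.79, 7.91 and 8.02 in cKO mice, against 8.82, 7.47, 8.29 and 7.82 in cCT mice. Here the highest of all 8 mice was cCT replicate 1, and the difference was 0.22 (95% interval -0.47 to 0.90, adjusted p = 0.847 from limma). Its partner H2-Ea, known to be silent in C57BL/6 mice, was detected on no array.

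The same mice were high across the classical chains and Cd74. Of the 8 probes, cKO replicate 2 was the highest cKO mouse on 8, and cCT replicate 1 was the highest cCT mouse on 7, with cCT replicate 3 above it on the H2-Ab1 probe ILMN_2631423. On all 8 probes cCT replicate 1 was above the median of the cKO mice. The lowest cCT mouse was replicate 2 on 4 probes and replicate 4 on 4. Without cCT replicate 1 the differences of these 8 probes were between 0.32 and 0.79 and without cKO replicate 2 between 0.05 and 0.44, and none passed with any of the 8 arrays left out. The order was another one for Cd86, on whose 3 probes cKO replicate 3 was the highest cKO mouse, and on 2 of which cKO replicate 2 was the lowest. The order of mice in a group is given as a description, since probes of one array share its RNA.

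**Figure D3:**
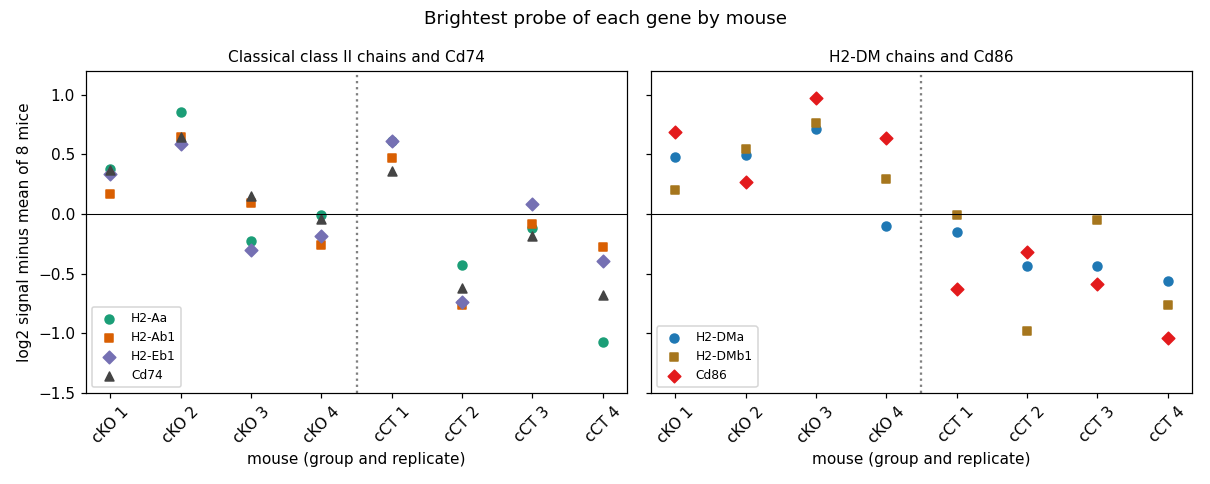
Log2 signal of the brightest probe of each gene minus its mean over the 8 mice, by mouse, with cKO replicates 1 to 4 left of the dotted line and cCT replicates 1 to 4 right of it. In the left panel cKO replicate 2 and cCT replicate 1 are high for H2-Aa, H2-Ab1, H2-Eb1 and Cd74, while in the right panel all cKO mice lie above all cCT mice for H2-DMa, H2-DMb1 and Cd86.

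Error within an array was smaller than the spread between mice on all 14 probes, taking the median over the arrays of the standard error over beads, carried to the log2 scale. It was 0.09 for both Cd74 probes and the brightest H2-Ab1 probe, where the SD between mice was 0.25 to 0.51. For the dim Cd86 probe ILMN_1216386 it was 0.19, against SDs of 0.34 in cKO and 0.42 in cCT.

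Whether Cd86 moved further than the other members was tested on the difference between the brightest Cd86 probe and the brightest probe of each other tested gene within each mouse, a comparison added after the values had been seen. The fold change of Cd86 exceeded that of H2-Ab1 by 0.96, of H2-Eb1 by 1.07, of Cd40 by 1.17 and of Cd74 by 0.72 on the log2 scale (two-sided exact permutation p = 0.0571, 0.0857, 0.0571 and 0.0857). It exceeded those of H2-Aa, H2-DMa and H2-DMb1 by 0.78, 0.49 and 0.39 (exact permutation p = 0.171, 0.0857 and 0.314). Over these 7 comparisons no adjusted p was below 0.12 (Benjamini-Hochberg, exact permutation), so Cd86 is not shown to have risen more than the class II genes.

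Ciita gave no measurable signal. Its 1 probe, ILMN_2678211, had detection p-values between 0.472 and 0.962 and log2 signals of 4.76 to 4.94 in cKO mice and 4.81 to 5.12 in cCT mice, below the dimmest detected probes. The class II genes were thus detected on all arrays beside an undetected transactivator probe, and a probe without signal does not show that the transcript is absent. Ifng was likewise detected on no array by either of its probes. Interferon gamma signalling had 7 tested genes of 10, with 1 higher, 0 lower and a median of 0.19, against 0.777% of 10427 tested genes called higher and a median of 0.02 over all of them. The called gene was Irf8, a transcription factor of microglia and other myeloid cells, with log2 signals of 8.04, 7.75, 8.48 and 7.46 in cKO mice, against 6.55, 6.39, 6.74 and 6.47 in cCT mice. Its groups were separate by a wide margin, at a difference of 1.39 (95% interval 0.93 to 1.86, adjusted p = 0.0195 from limma). The adjusted p was 0.0581 to 0.0789 without cKO replicate 1 or any 1 of the 4 cCT arrays. Irf1, which interferon gamma induces and which helps to switch on Ciita, differed by 0.50 without passing (adjusted p = 0.373).

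None of the factors that bind the X and Y boxes passed. Of 8 genes of this complex 6 were tested, 0 were called and the median difference was -0.01. Rfxank, an RFX subunit, differed by 0.43 (adjusted p = 0.606 from limma), Nfyb, an NF-Y subunit, by -0.20 (adjusted p = 0.716), and Rfx5 was detected on no array.

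Among further class II genes, each H2-DO chain was detected in 3 cKO mice and no cCT mouse. H2-DO inhibits H2-DM and is known mainly from B cells, thymic epithelium and some dendritic cells. H2-Oa had log2 signals of 6.60, 6.56, 6.66 and 5.79 in cKO mice, the last not detected, and of 5.57, 5.06, 5.43 and 5.41 in cCT mice. The groups did not overlap. Because the cCT signals were not above background, the fold of H2-Oa is only bounded, at 1.33 or more in cKO. The limma fit to the measured signals gave an adjusted p of 0.0753, and the fit to signals floored at the dimmest detected probe gave 0.405. Both H2-DO probes met the detection filter through the cKO arrays alone, so a difference was favoured by the filter and nothing is rested on these p-values. H2-Ob, whose bound was under 1 and gives no fold, had log2 signals of 5.84 to 6.13 in cKO and 5.06 to 5.66 in cCT (adjusted p = 0.107 from limma). H2-Eb2 was detected in 2 cKO mice and H2-DMb2 on no array.

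Processing enzymes that feed the class II pathway had a median difference of 0.25, against 0.02 over all tested genes. Of 8 tested, 0 were called lower and, against 0.777% of all tested genes, 1 was called higher. It was Ctss, cathepsin S, the protease that makes the last cuts in the invariant chain, with log2 signals of 10.32, 9.95, 10.53 and 9.86 in cKO mice, against 8.68, 9.13, 8.90 and 8.95 in cCT mice. All cKO mice were above all cCT mice, at a difference of 1.25 or 2.38-fold (95% interval 1.81 to 3.12-fold, adjusted p = 0.0164 from limma). The adjusted p was 0.0571 to 0.0650 without cKO replicate 1 or cCT replicate 3 or 4. Ctsz, a lysosomal carboxypeptidase, differed by 0.80 on its brightest probe and by 0.88 on a dimmer one and passed on neither (adjusted p = 0.104 and 0.0509). Ifi30, the lysosomal thiol reductase that unfolds antigens, differed by 0.78 on its brightest probe (adjusted p = 0.121), and Sppl2a, which clears the last invariant chain fragment from the membrane, by -0.58 (adjusted p = 0.654).

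Of the receptors and relatives of the costimulators, none of 3 tested genes passed. Cd274, the checkpoint ligand PD-L1, differed by 0.37 (adjusted p = 0.528 from limma) and Icos by -0.42 (adjusted p = 0.717), and Ctla4 was detected on no array and Cd28 in 1 cCT mouse. Downstream of Cd40, none of 5 tested genes passed, with Relb at 0.46 (adjusted p = 0.463) and Map3k14 at 0.33 (adjusted p = 0.605), and Cd40lg was detected on no array. The ubiquitin ligases that lower class II and CD86 at the surface, Marchf1 and Marchf8, differed by -0.25 and -0.07 (adjusted p = 0.669 and 0.918). Of the TNF family costimulators 1 of 8 could be tested, Tnfrsf4 at 0.36 (adjusted p = 0.626).

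Markers of cells that could carry these transcripts moved unequally with the groups. In whole tissue, more cells of a type and more RNA per cell cannot be told apart. Of 11 microglia markers 9 had a probe and 8 were tested. Of these, 2 were called higher (0.777% of all tested genes) and 0 lower, with a median difference of 0.70 (0.02 over all tested genes). Their summed signal was 6877 to 12647 in cKO mice and 4672 to 5167 in cCT mice, highest in cKO replicate 3 and, among cKO mice, lowest in replicate 4, as was H2-DMa. The called pair were Trem2, a lipid-sensing receptor, at 1.70 and Fcrls at 1.33 (adjusted p = 0.0231 and 0.0153 from limma), while P2ry12 differed by 0.16 (adjusted p = 0.834) and Itgam was detected on no array. Without 1 array Trem2 lost its call except for cKO replicates 3 and 4 (adjusted p 0.0612 to 0.0845), and Fcrls lost it without cKO replicate 1 or cCT replicate 3 or 4 (adjusted p 0.0507 to 0.0589). Their part in the result for Cd86 was not tested.

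**Figure D4:**
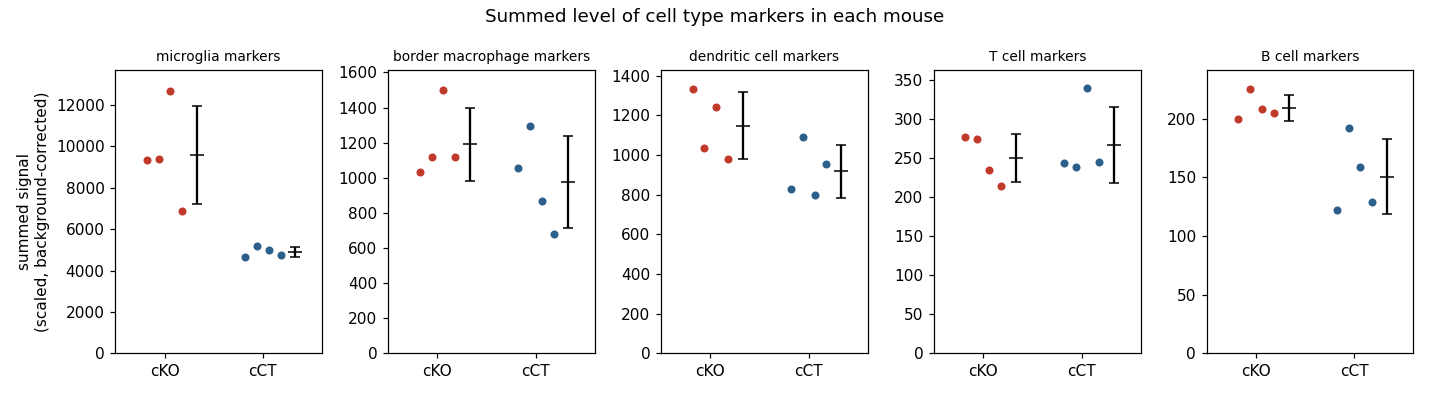
Summed signal (scaled, background-corrected, linear) of 5 marker lists in every mouse, with cKO mice in red on the left and cCT mice in blue on the right and black marks for the mean ± SD (n = 4 each). The groups stand apart for microglia markers (6877 to 12647 in cKO, 4672 to 5167 in cCT) and overlap for border macrophage, dendritic cell and T cell markers. B cell sums lie far lower (199 to 225 in cKO, 122 to 192 in cCT). They hold undetected genes and a Blnk probe detected in cKO mice only, so their separation is not read as a result for B cells. Siglech is in both the microglia and the dendritic cell sums.

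All 6 border macrophage markers were tested and 0 passed, with summed signals of 1031 to 1498 in cKO mice and 679 to 1293 in cCT mice. Mrc1, the mannose receptor, differed by 0.54 (adjusted p = 0.372 from limma), and Cbr2 went the other way, at -0.34 (adjusted p = 0.602). Of 9 dendritic cell markers 4 were tested and 0 passed, with sums of 978 to 1335 in cKO and 797 to 1090 in cCT, and the defining genes Flt3, Itgax, Xcr1, Clec9a and Cd209a were detected on no array. Most of the signal in these sums was Siglech, which is also on the microglia list, so the sums do not stand for dendritic cells alone. Siglech differed by 0.39 on its brightest probe (adjusted p = 0.538 from limma) and Batf3 by 0.32 (adjusted p = 0.619). Of 9 T cell markers 8 had a probe and 1, Cd3e, was tested, at -0.10 (adjusted p = 0.907), with sums of 215 to 276 in cKO and 238 to 340 in cCT, and Cd3g, Cd4, Cd8a and Cd2 were detected on no array. Of 7 B cell markers 6 had a probe and the defining genes Ms4a1, Cd79a and Pax5 were detected on no array. Sums of the list, undetected genes included, were 199 to 225 in cKO and 122 to 192 in cCT. The 1 tested gene of that list was Blnk, an adaptor that B cells share with macrophages and microglia. Its brightest probe was detected in 4 cKO mice and no cCT mouse, so it met the detection filter through the cKO arrays alone. That probe is also part of the sums. Neither the sums nor its adjusted p of 0.0400 from limma is read as a result for B cells. Against floored cCT signals the probe was at least 1.31-fold higher, with an adjusted p of 0.484 for the floored fit. The call was also lost without background correction (adjusted p = 0.526), with an offset of 50 (0.0937), with trend and robust moderation (0.133), and when any array other than cKO replicate 4 was left out (0.0617 to 0.158). The other Blnk probe, ILMN_1244526, differed by -0.17 (adjusted p = 0.887). Of 6 monocyte markers 3 were tested and 0 passed, and Ccr2 was detected on no array. The part of these cells in the class II values was not tested.

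Neuron, astrocyte and oligodendrocyte markers had 6, 6 and 5 tested genes and none passed with all arrays. Slc6a5, the glycine transporter of glycinergic neurons, detected in 1 cKO mouse and 3 cCT mice, differed by -0.52 (adjusted p = 0.506 from limma) and was called lower without cKO replicate 4 (-0.76, adjusted p = 0.0411). Gfap, the filament of reactive astrocytes, differed by 0.85 (adjusted p = 0.297 from limma) and Aldh1l1, also on the astrocyte list, by 0.49 on its brightest probe (adjusted p = 0.376). Of the oligodendrocyte list, the myelin gene Mog differed by -0.49 (adjusted p = 0.520). Cnp differed by -0.27 on its brightest probe (adjusted p = 0.485), with 13.61 to 13.83 in cKO and 13.87 to 14.16 in cCT. A dimmer Cnp probe differed by -0.14 (adjusted p = 0.820).

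Blood in the tissue was read from red cell genes chosen after the class II values had been seen. All 4 tested genes had lower means in cKO, unlike the class II probes, with differences of -0.53 for Hba-a1, -0.56 for Hbb-bt, -0.53 for Alas2 and -1.55 for Slc4a1, with separate groups for Slc4a1, and none passed (adjusted p 0.325 to 0.613 from limma). Hba-a1 had log2 signals of 14.52, 15.60, 14.39 and 14.46 in cKO mice, against 15.60, 15.04, 15.05 and 15.39 in cCT mice. The highest cKO mouse, replicate 2, and the highest cCT mouse, replicate 1, were the mice highest for the classical class II chains, whereas cCT replicate 4, the next highest of its group for Hba-a1, was among the lowest for them. Hbb-bt was highest in the same mice, at 10.70 in cKO replicate 2 and 11.10 in cCT replicate 1, whereas Alas2 was highest in cKO replicate 2 and cCT replicate 2 and Slc4a1 in cKO replicate 4 and cCT replicate 3. The part of blood in the class II values was not tested.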

How the data were processed

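Total RNA of whole brainstem was hybridised to Illumina MouseRef-8 v2 beadchips, 1 array per mouse, in 4 Vglut2:Ndufs4cKO and 4 Vglut2:Ndufs4cCT mice. The authors deposited for each of 25697 probes the unnormalized signal intensity, its standard error and number of beads, and a detection p-value, and also a table of intensities that GenomeStudio had background-subtracted and average-normalized (version not given in the sources used here). The deposited unnormalized intensities were used. The custom error model of the study was not repeated and limma took its place.

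The tools were limma 3.58.1 and statmod 1.5.0 under R 4.3.3. The normexp model removed background, whose mean and SD limma estimated through the detection p-values. Arrays were scaled to equal mean signals (factors 0.876 to 1.09), 16 was added and log2 was taken, which understates changes of dim probes. The test took in the 15225 probes with a detection p under 0.05 in 3 or more of the 8 mice. Groups were compared with lmFit and eBayes and p-values were adjusted over all tested probes (Benjamini-Hochberg, threshold 0.05). Single values were also compared by two-sided exact permutation over the 70 arrangements of the mice. A gene of another list was represented by its brightest tested probe. Where no array of one group detected a probe, the fold is a lower bound, the mean of the brighter group over the mean of the dimmer group with each array raised to its dimmest detected probe. Gene symbols came from the platform annotation, which named 23978 probes, and can be old. Scripts were tested on simulated arrays.

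The 10 members and all gene lists were chosen with earlier results of these data known. All members were named. From each other list the called genes or, with fewer than 2 called, the tested genes with the smallest p were selected, and not all of those selected are given by value. Further genes named as undetected or by value were chosen after their values were seen. Replicates are separate mice. The number of arrays limits the precision. Alternatives were no background correction, a floor at the dimmest detected probe, quantile normalization, offsets of 1 and 50, the normalized table, no filter and a stricter filter (detection p under 0.01 in every mouse of either group), intensity trend with robust moderation, weights for arrays, a block for the replicate number, the mean of a gene's probes, and each array left out.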

Additional observations from a re-analysis of the deposited data

Results flagged for a closer look

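Within groups of 4 mice, 94 groups of values were examined for 1 mouse far from the other 3, and 5 stood out by Dixon's criterion, where chance flags about 1 group in 20. None was a member probe. In cKO replicate 4, H2-Oa was low at 5.79 (6.56 to 6.66 in the other cKO mice), Cd3e was low at 6.15 (6.80 to 6.83) and Slc17a6 was high at 14.91 (14.71 to 14.73). Cd274 was low at 8.48 in cCT replicate 2 (8.75 to 8.80 in the other cCT mice), and Icos was low at 5.33 in cCT replicate 4 (6.36 to 6.53).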

How the results depend on the processing

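All 14 member probes kept a higher mean in cKO under the 11 alternatives other than left-out arrays, except that the Cd86 probe ILMN_1216386 was not tested under the stricter detection filter, and 2 member probes were called under 9 of these, 3 with array weights, where H2-DMa joined the Cd86 pair, and 0 with the replicate block. Over all probes 107 were called, of which 102 were higher and 5 lower. These counts became 240, 213 and 27 with array weights and 11, 11 and 0 with the replicate number as a block, and 3 were lower with an offset of 50. Called genes of the other lists numbered 5, against 8 with array weights and 0 with the replicate block. Without background correction the Cd86 probes ILMN_2743244 and ILMN_1217041 differed by 0.65 and 0.59 and were still called. The block left Cd86 at 1.29 (adjusted p = 0.130) and 1.28 (adjusted p = 0.0770). The sample titles give a replicate number and no pairing of mice. Deviations of same-numbered mice from the group means correlated negatively over probes (-0.26 to -0.19), and those of other pairs at -0.22 to 0.25. These correlations do not decide whether the numbers stand for a shared factor, and the reason for the lost calls was not tested.

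With 1 array left out, 30 to 357 probes were called, 30 to 234 higher and 0 to 123 lower, with 0 to 3 member probes and 0 to 11 genes of the other lists. No member probe was called without cKO replicate 1 and 3 were without cKO replicate 4. The differences of the Cd86 probes were 1.15 to 1.41 and 1.18 to 1.37. Cd40 ranged from -0.092 to 0.31, with -0.092 without cCT replicate 4, Marchf8 from -0.15 to 0.039, and Chil3 from -0.036 to 0.25. Chil3 was -0.000743 without background correction and -0.078 with floored signals, and Cd3e was 0.079 with array weights and -0.20 to 0.071 with arrays left out. Irf8, Ctss, Trem2, Fcrls and Blnk lost their calls without 5, 3, 6, 3 and 7 of the 8 arrays. H2-DMa, H2-Oa and Ctsz passed without cKO replicate 4 and with array weights, and Slc6a5 passed as lower without cKO replicate 4 (-0.76). The causes were not tested. Signals at background limit Ciita, Cd80 and 3 Cd40 probes, for which no difference could be measured.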
